A study of Mus musculus with 6 samples.

Results

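The 9 genes studied here belong to the nuclear lamina and to the high mobility group (HMG) chromatin proteins, and were chosen by symbol from the table of gene counts: Lmna, Lmnb1, Lmnb2, Lbr, Tmpo, Hmgb1, Hmgb2, Hmga1 and Hmga2. They are 9 of the 27179 genes in that table, and 8 of them had enough reads to be tested, Hmga2 being the exception. Expression was compared between CD34- and CD34+ cancer-associated fibroblasts (CAFs), sorted from the same 3 mammary tumors, which gave 6 libraries and 3 per group. The tumors came from female raGFP-Wnt1 mice, in which a Wnt1 transgene under the mouse mammary tumor virus promoter (MMTV, FVB/NJ background) drives tumor growth. The same mice carry 1 copy of a Pdgfra H2B-GFP reporter allele from a C57BL/6 line, which lights up the nuclei of cells that use the Pdgfra promoter. Both groups carry both alleles, and both hold GFP-positive cells alone, so a fibroblast without Pdgfra activity is outside either group. The labels call the groups CD34 negative and CD34 positive fibroblasts, whereas the series title speaks of CD34-low and CD34-high cells. They give no ages and name no treatment.

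The lamina is a meshwork of intermediate filament proteins beneath the inner nuclear membrane. A-type lamins come from Lmna, B-type lamins from Lmnb1 and Lmnb2, and inner membrane proteins such as the lamin B receptor (Lbr) and the LAP2 proteins (Tmpo) tie the meshwork to chromatin. HMGB proteins bend DNA through their HMG boxes, and HMGA proteins bind AT-rich DNA through AT-hooks. In cells that enter senescence, a lasting arrest of division, loss of lamin B1 and of HMGB2 are widely used markers, HMGB1 leaves the nucleus, and HMGA proteins collect in condensed heterochromatin. Transcripts of Lmnb1, Lbr, Tmpo and Hmgb2 are also known to be high in dividing cells.

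The libraries held 16238059 to 86609267 counts in 14314 to 19220 genes, and replicates of a group correlated at 0.873 to 0.961 (Pearson, log2 CPM, where CPM is the count scaled to a fixed library size). The CD34- library of tumor 3 stood apart. It held 159 genes at 0 counts that averaged at least 2 CPM over the other libraries, against 1 to 31 such genes in each other library. Cd34 itself lay at 42.0 to 102 CPM in CD34- and 562 to 1605 CPM in CD34+ libraries. The collagen gene Col1a1 was abundant in all 6 libraries, at 11718 to 22778 CPM, while the 7 immune markers summed to 5.1 to 15.3 CPM. Summed markers of 5 endothelial genes were lower in CD34- libraries (10.7 to 27.9 against 54.5 to 128 CPM), mostly through Tek, while Cdh5 and Emcn lay at 0 to 4.18 CPM in the 6 libraries. Those of 5 pericyte genes were higher in CD34- libraries (186 to 230 against 48.4 to 99.9 CPM). Rgs5, a defining pericyte gene, reached 3.72 to 10.7 CPM in CD34- and 0.247 to 1.18 CPM in CD34+ libraries. The 7 epithelial markers overlapped (53.4 to 152 against 13.97 to 144 CPM), and 2 erythroid genes reached at most 4.39 CPM. When the tumor entered the fit as a block, 4.32% of all tested genes were called higher and 4.25% lower. In that fit 1 of 8 fibroblast markers was called higher and 3 lower, and 3 of 5 pericyte markers higher and 1 lower. Of the endothelial markers 1 of 5 was called lower, and 0 of the tested epithelial, immune and erythroid markers were called. The part of these cells in the differences given here was not tested.

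In these sorted CAFs Lmna and the B-type lamin gene Lmnb1 lay on opposite sides, whereas the other B-type gene, Lmnb2, overlapped between the groups. Lmna was 1.88 times as abundant in CD34- as in CD34+ CAFs by mean CPM, Lmnb1 was 2.81 times as abundant in CD34+ as in CD34- CAFs, and the groups did not overlap for either gene. Hmgb2 followed the direction of Lmnb1 at 1.86 times. No member had an adjusted p under 0.05 in the comparison without a tumor term (limma-voom with Benjamini-Hochberg adjustment, 0 of 8 called against 0.121% of the 14855 tested genes). At an unadjusted p under 0.05 that fit held 1 of 8 members higher in CD34- CAFs, Lmna, beside 7.23% of all tested genes. It held 3 of 8 lower, Lmnb1, Hmgb2 and Lbr, beside 7.1% of all tested genes. Both fractions of a pair came from 1 tumor, and with the tumor as a block 1 of 8 members was called higher, Lmna, beside 4.32% of all tested genes. In that fit 2 of 8 were called lower, Lmnb1 and Hmgb2, beside 4.25% of all tested genes. Lower fitted levels in CD34- CAFs were found for 7 of 8 members, with a median log2 fold change of -0.56 against -0.03 over all tested genes. A majority of all tested genes was lower too, as that median lies below 0. Among the lower members, Lmnb2 changed sign in 5 of 22 settings. In bulk libraries, fewer cells of a type and less RNA per cell cannot be told apart.

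**Figure D1:**
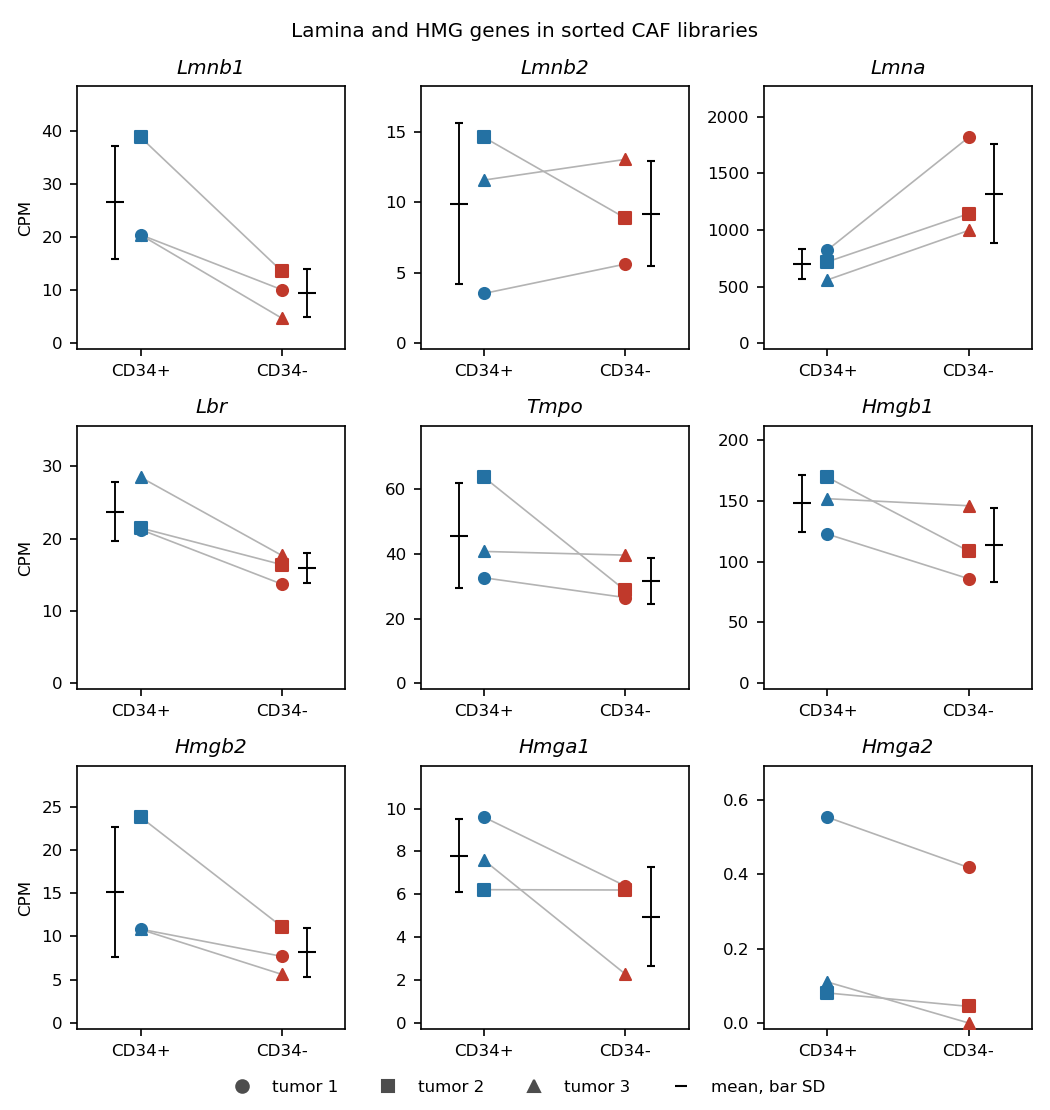
Expression of the 9 genes in each library on a linear axis of CPM, with circles, squares and triangles for tumors 1, 2 and 3, grey lines joining the fractions of a tumor, and black marks for the mean with its SD. Hmga2, scaled by the library total alone, is drawn without a mean because 1 library held no read. Lmnb1 lay between 4.70 and 13.6 CPM in CD34- and between 20.4 and 38.8 CPM in CD34+ libraries, whereas Lmna lay at 996 to 1819 CPM in CD34- and 559 to 824 CPM in CD34+ libraries.

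Lmna (gene 16905, chromosome 3, 88481148 to 88509932 in GRCm38.p6) encodes lamins A and C, which stiffen the nucleus. Its CPM in tumors 1, 2 and 3 was 1819, 1144 and 996 in CD34- CAFs and 824, 719 and 559 in CD34+ CAFs. The lowest CD34- library was above the highest CD34+ library, and tumor 1 held the highest value of each group. The log2 fold change was 0.87 ± 0.27 (SE, n = 3 per group, limma-voom adjusted p = 0.206), and with the tumor as a block it was 0.88 ± 0.14 (adjusted p = 0.00541). Within tumors the log2 ratio was 1.14, 0.67 and 0.83, so the sign was shared by 3 of 3 tumors, as it was for 46.3% of all tested genes.

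Lmnb1 (gene 16906, chromosome 18) encodes lamin B1, a B-type lamin that stays anchored in the membrane by its lipid tail. It was measured at 10.1, 13.6 and 4.70 CPM in the CD34- CAFs of tumors 1, 2 and 3, and at 20.4, 38.8 and 20.4 CPM in the CD34+ CAFs. Each CD34- library was below each CD34+ library, and the lowest was the CD34- library of tumor 3, which also lacked the most genes. The log2 fold change was -1.64 ± 0.43 without the block (SE, limma-voom adjusted p = 0.147) and -1.49 ± 0.24 with it (adjusted p = 0.00674). Within tumors the log2 ratio was -1.02, -1.52 and -2.11. With tumor 3 left out of the blocked fit the log2 fold change was -1.35 (adjusted p = 0.00161), so the blocked call held without that tumor.

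Lmnb2 (gene 16907, chromosome 10, 80901363 to 80918245) encodes the other B-type lamin, lamin B2. Its CPM was 5.61, 8.88 and 13.0 in CD34- and 3.53, 14.6 and 11.6 in CD34+ CAFs. The groups overlapped over most of their range, and the CD34- fraction was above its CD34+ partner in tumors 1 and 3 and below it in tumor 2. Without the block its log2 fold change was -0.44 with a 95% interval of -1.54 to 0.66 (adjusted p = 0.716), and it was -0.27 with an interval of -0.94 to 0.40 in the blocked fit (adjusted p = 0.658). Its direction changed sign without the CD34+ library of tumor 2, at a log2 fold change of 0.14.

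Per length of gene as listed in the count table (RPKM, scaled by the library total alone), Lmna exceeded Lmnb1 in each of the 6 libraries. The ratio of Lmna to Lmnb1 was 154, 72.2 and 181 in CD34- CAFs of tumors 1, 2 and 3 and 34.5, 15.9 and 23.4 in CD34+ CAFs. The lowest CD34- ratio was above the highest CD34+ ratio. Both B-type genes together made up 0.944%, 2.11% and 1.81% of lamin RPKM in CD34- CAFs and 3.22%, 7.68% and 5.93% in CD34+ CAFs, again without overlap. The ratio of Lmna to Lmnb2 overlapped between groups (77.4 to 329 in CD34-, 49.0 to 237 in CD34+ CAFs), and so did that of Lmnb1 to Lmnb2 (0.428 to 2.13 in CD34-, 2.09 to 6.87 in CD34+ CAFs). Within each tumor, the CD34- fraction had the higher ratio of Lmna to Lmnb2 and the lower ratio of Lmnb1 to Lmnb2. These ratios combine genes already compared above and were not tested.

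**Figure D2:**
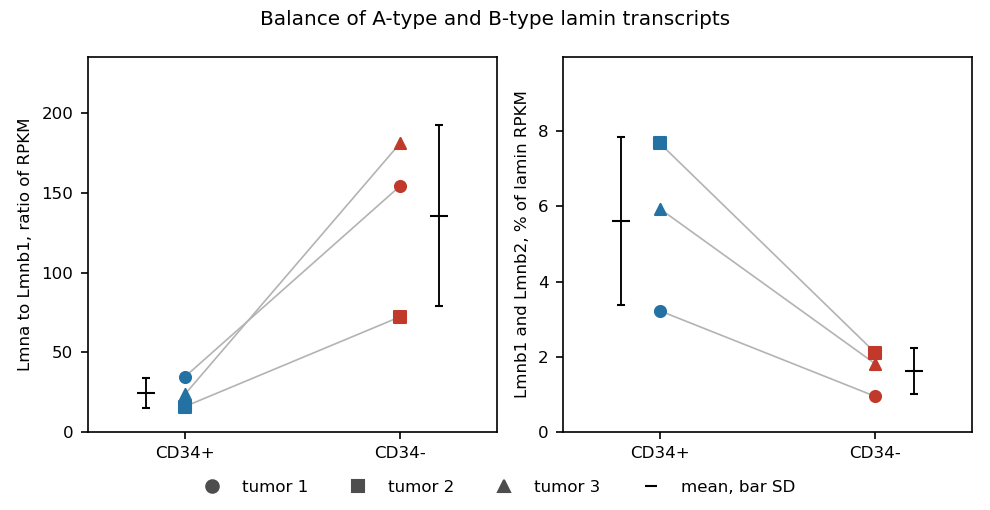
Left, the ratio of Lmna to Lmnb1 RPKM, and right, the percentage of lamin RPKM from Lmnb1 and Lmnb2, in each library, with symbols for tumors 1 to 3, grey lines joining the fractions of a tumor and black marks for the mean with its SD. The ratio lay at 72.2 to 181 in CD34- and 15.9 to 34.5 in CD34+ CAFs, and the B-type percentage at 0.944 to 2.11 and 3.22 to 7.68.

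The next genes encode proteins of the inner nuclear membrane. Lbr (gene 98386, chromosome 1, 181815315 to 181842401) encodes a receptor that holds lamin B and heterochromatin at the nuclear edge and also acts as a sterol reductase. It was measured at 13.7, 16.4 and 17.7 CPM in CD34- and 21.2, 21.5 and 28.5 CPM in CD34+ CAFs. The groups did not overlap, and the sign was shared by 3 of 3 tumors, as for 46.3% of all tested genes. CD34- CAFs differed by a log2 fold change of -0.58 ± 0.22 (SE, limma-voom adjusted p = 0.295) and -0.55 ± 0.19 with the block (adjusted p = 0.121), so Lbr did not pass in either fit. Non-overlapping groups were found for 3 of 8 members, Lmna, Lmnb1 and Lbr, beside 20.4% of all tested genes.

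Tmpo (gene 21917, chromosome 10, 91147571 to 91181752) encodes the LAP2 isoforms, some of which bind lamins at the membrane while LAP2 alpha binds A-type lamins in the nuclear interior. Its CPM was 26.5, 28.7 and 39.6 in CD34- and 32.6, 63.7 and 40.8 in CD34+ CAFs. The CD34- library of tumor 3 lay above the CD34+ library of tumor 1, and the widest gap within a tumor was in tumor 2. Fitted over all tumors, the log2 fold change was -0.60 (95% interval -1.24 to 0.04, adjusted p = 0.378), and -0.58 with the block (adjusted p = 0.153). Within tumors the log2 ratio was -0.30, -1.15 and -0.04. Without tumor 3, Tmpo passed in the blocked fit (log2 fold change -0.83, adjusted p = 0.0195).

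Among the 4 HMG members, Hmgb1 (gene 15289, chromosome 5, 149046702 to 149053057) was the most abundant. It encodes a DNA-bending chromatin protein that also acts as an alarm signal outside the cell. Its CPM was 85.9, 109 and 146 in CD34- and 123, 169 and 152 in CD34+ CAFs, and the groups overlapped through tumor 3. For Hmgb1 the log2 fold change was -0.39 (95% interval -0.92 to 0.13, adjusted p = 0.478), and -0.40 with the block (adjusted p = 0.141). It passed in the blocked fit without tumor 3 (-0.59, adjusted p = 0.0144). Of the 50-base stretches of its GENCODE transcripts, 20.4% also occurred in other genes, most of them in Gm21596. Its counts therefore depend on how such reads were assigned. That sharing was not tested. With the counts of Hmgb1-ps10 and Hmgb1-rs17 added, copies by symbol that are not among the 5 genes sharing the most stretches, its log2 fold change was -0.43 (adjusted p = 0.435).

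Hmgb2 (gene 97165, chromosome 8, 57511843 to 57515999) encodes the related HMG box protein that is abundant in dividing cells. It was measured at 7.69, 11.1 and 5.61 CPM in CD34- and 10.8, 23.8 and 10.8 CPM in CD34+ CAFs. The CD34- library of tumor 2 was slightly above the CD34+ libraries of tumors 1 and 3, while within each tumor the CD34- fraction was the lower. The log2 fold change was -1.07 ± 0.41 (SE, limma-voom adjusted p = 0.296) and -0.94 ± 0.24 with the block (adjusted p = 0.0462). Within tumors the log2 ratio was -0.50, -1.10 and -0.94. The blocked call was lost without tumor 1 (-1.04, adjusted p = 0.0959) and without tumor 2 (-0.73, adjusted p = 0.603), with the tumor as a random effect (-1.03, adjusted p = 0.0929) and with edgeR and the block (-0.85, adjusted p = 0.125). The fitted value was -0.45 without the CD34+ library of tumor 2 and with no block (adjusted p = 0.785). Stretches of 50 bases shared with other genes made up 18.7% of the Hmgb2 transcripts, mostly with predicted genes such as Gm4739.

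Hmga1 (gene 15361, chromosome 17, 27556574 to 27563672) encodes an AT-hook protein that shapes chromatin. Its CPM was 6.39, 6.20 and 2.28 in CD34- and 9.59, 6.22 and 7.59 in CD34+ CAFs. Tumor 2 showed no gap, and the lowest value was again the CD34- library of tumor 3. The log2 fold change was -0.54 with a 95% interval of -1.51 to 0.44 (adjusted p = 0.608), and the interval with the block was -1.38 to 0.31 (adjusted p = 0.452). Its near-identical copy Hmga1b shares 55.0% of the 50-base stretches of Hmga1, and the Hmga1b symbol held 5.28 to 9.33 CPM in CD34- and 5.33 to 10.6 CPM in CD34+ libraries. With both genes added, the log2 fold change was -0.33 without the block and -0.32 with it (adjusted p = 0.681 and 0.455).

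Hmga2 (gene 15364, chromosome 10, 120361268 to 120476469), the related AT-hook gene that is mostly used in embryonic tissue, was close to the limit of detection. It held 25, 2 and 0 counts in the CD34- libraries of tumors 1, 2 and 3 and 9, 7 and 3 counts in the CD34+ libraries. By library total alone the highest level was 0.554 CPM, in the CD34+ library of tumor 1 (95% exact Poisson interval 0.253 to 1.05, counting error alone), followed by 0.419 CPM in its CD34- partner (0.271 to 0.618). Both fractions of tumor 1 were above the other 4 libraries. The library with 0 reads allows a level of up to 0.0850 CPM at 3 counts, and its two-sided exact interval ended at 0.1045 CPM. At this depth no difference between the groups was detectable, and Hmga2 was removed by the filter on low counts. The annotated copy Hmga2-ps1 was listed with 9 to 149 counts in CD34- and 30 to 370 counts in CD34+ libraries. With those counts added the sum passed the filter, and its log2 fold change was -1.17 (adjusted p = 0.610), or -0.56 with the block (adjusted p = 0.574).

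**Figure D3:**
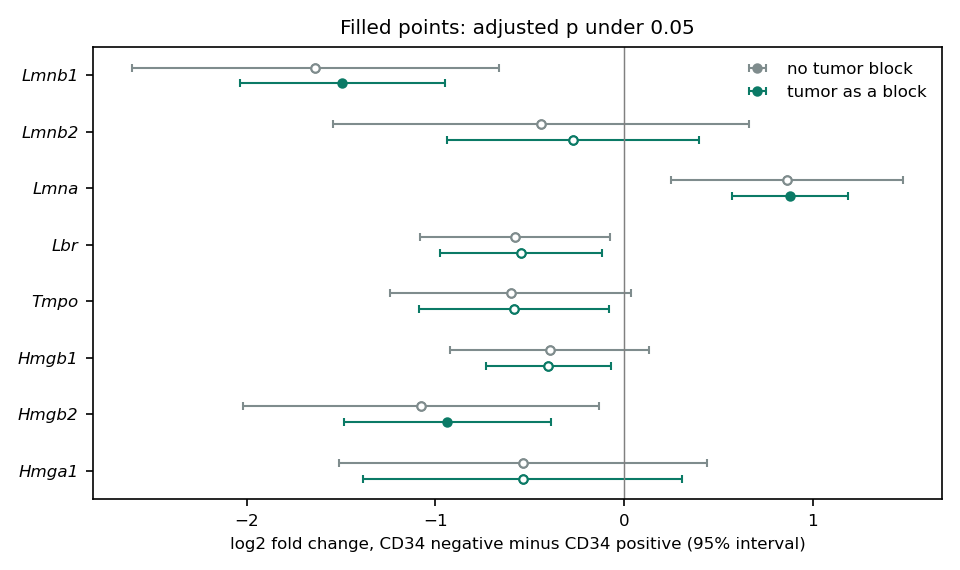
Log2 fold change of the 8 tested genes, CD34- minus CD34+ CAFs, with 95% intervals, without a tumor term in grey and with the tumor as a block in green. Filled points have an adjusted p under 0.05, which held for Lmnb1 (-1.49), Lmna (0.88) and Hmgb2 (-0.94) with the block and for no gene without it.

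Per length, the order of levels began the same way in both groups. Lmna came first at 390 ± 110 RPKM in CD34- and 212 ± 35.6 RPKM in CD34+ CAFs (SD, n = 3), followed by Hmgb1 at 49.1 ± 15.1 and 64.5 ± 10.3 RPKM. Neither overlapped its neighbour in the order. In CD34- CAFs the next 6 genes lay close together, with Lbr at 4.46, Tmpo at 3.88, Lmnb1 at 3.28, Hmgb2 at 3.00, Lmnb2 at 2.73 and Hmga1 at 2.38 RPKM. In CD34+ CAFs Lmnb1 headed the same 6 genes at 9.36 ± 3.55 RPKM, followed by Lbr at 6.75, Tmpo at 5.65, Hmgb2 at 5.63, Hmga1 at 3.84 and Lmnb2 at 2.96 RPKM. Within these 6 genes each overlapped the next in range in both groups. Lmnb1 thus ranked 5 of 9 in CD34- and 3 of 9 in CD34+ CAFs. Its range overlapped both neighbours in CD34- CAFs and that of Lbr, but not of Hmgb1, in CD34+ CAFs.

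The promoter windows of Hmgb2 and Lmna are shown because these genes lay on opposite sides of the comparison with the tumor as a block. The windows run from 250 bases before to 50 bases after an annotated start, 5′ to 3′ on the strand of the gene, from RefSeq on GRCm38.p6, in which 8 of the 9 genes were matched (not Lmnb1). The Hmgb2 window is chr8:57511593-57511892 on the plus strand. The Lmna windows are chr3:88493263-88493562 and chr3:88503303-88503602 on the minus strand, both of them within the annotated span of the gene. Capitals mark the letters CCAAT, and the letters TTTGAA or TTTAAA of the cell cycle homology region (CHR), on either strand.
Hmgb2: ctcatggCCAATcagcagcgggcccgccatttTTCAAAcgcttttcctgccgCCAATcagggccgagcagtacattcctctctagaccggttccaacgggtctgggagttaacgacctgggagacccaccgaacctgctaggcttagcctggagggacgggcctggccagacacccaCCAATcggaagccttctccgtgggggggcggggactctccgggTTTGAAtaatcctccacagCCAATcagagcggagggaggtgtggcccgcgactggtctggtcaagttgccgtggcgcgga
Lmna, window 1: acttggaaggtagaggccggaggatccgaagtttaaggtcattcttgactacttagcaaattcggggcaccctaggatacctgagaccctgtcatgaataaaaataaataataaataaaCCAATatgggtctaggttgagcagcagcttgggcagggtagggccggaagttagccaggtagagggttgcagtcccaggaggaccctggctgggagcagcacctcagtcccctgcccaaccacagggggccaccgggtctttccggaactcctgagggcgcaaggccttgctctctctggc
Lmna, window 2: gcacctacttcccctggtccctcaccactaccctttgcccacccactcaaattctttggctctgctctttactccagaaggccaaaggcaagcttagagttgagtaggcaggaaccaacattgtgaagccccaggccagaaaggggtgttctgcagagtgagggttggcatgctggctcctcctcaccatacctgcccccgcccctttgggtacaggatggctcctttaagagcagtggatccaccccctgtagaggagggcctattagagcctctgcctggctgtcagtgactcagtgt

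Pairs of CCAAT boxes with a CHR are a known arrangement in promoters of genes that peak late in the cell cycle. The Hmgb2 window held 4 CCAAT boxes, at -243, -198, -73 and -11 with the start base as 1, and 2 CHR matches, at -218 and -30. The Lmna windows held 1 CCAAT box and no CHR match between them. Like those of Tmpo, they did not reach the 5′ end of the annotated span of the gene, so that end was not scanned. The Lbr window held 2 CCAAT boxes (-68 and -28) and 1 CHR match (-45), and 1 of the Tmpo windows held 2 CCAAT boxes (-53 and -21) and 1 CHR match (-119). The other members held no such combination, with 3 CCAAT boxes but no CHR match in 1 Hmgb1 window, a CHR match but no CCAAT box for Hmga1, and neither for Lmnb2 and Hmga2. Over all 32851 promoter windows of the table, 37.4% held a CCAAT box, 27.6% a CHR match and 3.13% at least 2 CCAAT boxes with a CHR match. An E2F core, TTCCCGC or TTGGCGC on either strand, was in 6.81% of all windows, and among the members in 1 window each of Tmpo, Lmnb2 and Hmga2. The GC box, GGGCGG on either strand, was in 35.7% of all windows and in a window of each of the 8 matched genes. No reads of a bound factor were measured, and a match of letters is not a bound site.

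Mitotic genes lay on the side of Lmnb1 and Hmgb2. Of 16 such genes, 0 were called without the block, beside 0.121% of all tested genes. With it 9 were called lower and 0 higher, beside 4.25% and 4.32% of all tested genes. In the fit without the block 10 of 16 had an unadjusted p under 0.05, each of them lower, beside 7.1% of all tested genes. The median log2 fold change of the 16 genes was -2.88 without and -1.85 with the block. Several of the 16 had 0 to 3 counts in the CD34- library of tumor 3, and the part of these low counts in the medians was not tested. Top2a, which untangles DNA, was measured at 2.33, 21.2 and 6.41 CPM in CD34- and 14.4, 106 and 14.9 CPM in CD34+ CAFs, a log2 fold change of -2.16 with the block (adjusted p = 0.00164). The proliferation marker Mki67 changed by -1.86 (adjusted p = 0.00233), and the cyclin gene Ccna2 by -2.28 (adjusted p = 0.00642). Tpx2, Cenpf and Birc5, which build or watch over the mitotic spindle, changed by -1.85, -2.38 and -1.84 in the same fit. With the correlation within tumors estimated instead (tumor as a random effect), none of these 6 genes passed, at adjusted p = 0.0544 to 0.140. Without tumor 2 the blocked fit lost Ccna2, Tpx2, Cenpf and Birc5 (adjusted p = 0.172 to 0.587) and kept Top2a and Mki67, and without tumor 1 it lost Cenpf (adjusted p = 0.0579).

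The summed CPM of the 16 mitotic genes, scaled by the library total alone like each list sum, was 26.4, 110 and 51.4 in CD34- and 78.8, 452 and 143 in CD34+ CAFs of tumors 1, 2 and 3. Tumor 2 held the highest sum of each group, and its libraries were also the highest of each group for Lmnb1 and Hmgb2. The CD34- sum of tumor 2 was above the CD34+ sum of tumor 1, as it was for Hmgb2, whereas Lmnb1 did not overlap. Of 14 DNA replication genes, 2 were called lower and 0 higher with the block, beside 4.25% and 4.32% of all tested genes. They were Mcm5 (-2.17, adjusted p = 0.0153) and Mcm2 (-1.47, adjusted p = 0.0201), both subunits of the replicative helicase. Both calls were lost with the tumor as a random effect (adjusted p = 0.174 and 0.106), with edgeR and the block (0.106 and 0.0895) and in the block without tumor 2 (0.530 and 0.614). Their medians within tumors were -0.30, -1.38 and 0.47, so tumor 3 went the other way, while the mitotic medians were -1.36, -1.91 and -3.00. The mitotic median of tumor 3 rests in part on genes with 0 to 3 counts in its CD34- library, which lacked the most genes. Its size is therefore uncertain. The part of dividing cells in the levels of Lmnb1 and Hmgb2 was not tested.

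**Figure D4:**
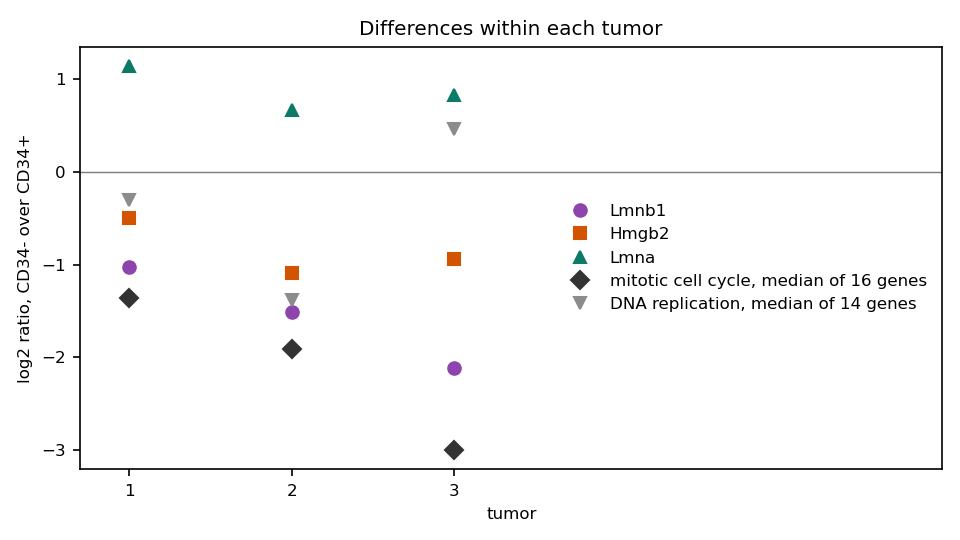
Log2 ratio of CD34- over CD34+ CAFs within tumors 1, 2 and 3 for Lmnb1, Hmgb2 and Lmna, and the median log2 ratio of 16 mitotic and 14 DNA replication genes. Lmna lay above 0 in each tumor (0.67 to 1.14), Lmnb1 (-2.11 to -1.02), Hmgb2 (-1.10 to -0.50) and the mitotic median below it, and the replication median was above 0 in tumor 3 (0.47). Several mitotic genes had 0 to 3 counts in the CD34- library of tumor 3.

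A list of 8 senescence genes, most of them regulators of arrest, lay on the side of Lmna. With the block 4 were called higher and 0 lower, beside 4.32% and 4.25% of all tested genes. Without it 0 of 8 were called, beside 0.121% of all tested genes. Those 4 genes then had a limma-voom adjusted p of 0.0735 to 0.142. Each other list given here also had 0 genes called without the block. The senescence list had a median log2 fold change of 1.13 without and 1.08 with the block. Cdkn2a, which encodes the cell cycle inhibitors p16 and p19ARF, was measured at 58.6, 69.2 and 61.0 CPM in CD34- and 13.6, 18.3 and 4.798 CPM in CD34+ CAFs. The groups did not overlap, and the blocked log2 fold change was 2.28 ± 0.29 (SE, adjusted p = 0.00233). Cdkn2b, its neighbour that encodes p15, had 1.69 (adjusted p = 0.00883), and Cdkn1a, which encodes p21, had 1.54 (adjusted p = 0.00143). Mdm2, which limits p53 and is itself a p53 target, had 1.38 (adjusted p = 0.00912, or 0.0535 with edgeR and the block). Trp53, Rb1 and Glb1 were not called, with blocked log2 fold changes of 0.05, 0.77 and 0.15.

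Of 16 inner nuclear membrane and linker genes, 2 were called higher and 1 lower with the block, beside 4.32% and 4.25% of all tested genes, and 13 were not called. They had a median log2 fold change of 0.12 without it. Sun2, which spans the inner membrane and binds A-type lamins, was measured at 131, 90.3 and 101 CPM in CD34- and 79.8, 48.0 and 49.9 CPM in CD34+ CAFs. These values did not overlap, and the blocked log2 fold change was 0.88 (adjusted p = 0.0054). Tmem43, a membrane protein that binds lamins and emerin, had 0.60 (adjusted p = 0.0234), a call lost with edgeR and the block (adjusted p = 0.0714) and without tumor 2 (adjusted p = 0.170). Syne2, which encodes a nesprin that links SUN proteins to the cytoskeleton, had -0.86 (adjusted p = 0.0072), at 31.0 to 41.4 CPM in CD34- and 52.7 to 81.3 CPM in CD34+ CAFs.

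None of the 6 genes that process or bind prelamin A was called in the blocked fit, and 0 of 6 had an unadjusted p under 0.05 without the block. Zmpste24, the protease that cuts prelamin A, had a log2 fold change of -0.07 without and -0.05 with the block. Of 25 nucleoporin genes 1 was called lower with the block, Nup155 of the inner pore ring (-0.77, adjusted p = 0.0435), and 0 were called higher, beside 4.25% and 4.32% of all tested genes. That call was lost with edgeR and the block (adjusted p = 0.0987) and in the block without tumor 1 or tumor 2 (adjusted p = 0.1045 and 0.470).

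Of 12 further HMG box and HMGN genes, 11 were tested, and 1 was called lower and 0 higher with the block, beside 4.25% and 4.32% of all tested genes. The 1 gene was Hmgn2, which encodes a nucleosome-binding protein. It was measured at 40.3, 46.2 and 40.3 CPM in CD34- and 60.5, 92.1 and 68.1 CPM in CD34+ CAFs, a blocked log2 fold change of -0.80 (adjusted p = 0.0114), which did not pass without tumor 2 (adjusted p = 0.118). Of 8 genes linked to let-7, which restrains Hmga2, 5 were tested and 0 were called, and Lin28a and Lin28b held no count in any library. Of 7 genes for receptors and partners of extracellular HMGB1, 2 were called lower and 0 higher with the block. The shares of all tested genes were again 4.25% and 4.32%. Thbd, which encodes thrombomodulin, a binder of HMGB1 and a thrombin receptor, was at 62.1 to 96.4 CPM in CD34- and 170 to 272 CPM in CD34+ CAFs (-1.44, adjusted p = 0.000419). Cxcl12, whose chemokine pairs with HMGB1, had -0.82 (adjusted p = 0.0292), a call lost with the tumor as a random effect (adjusted p = 0.165) and with edgeR and the block (adjusted p = 0.105). With the block 0 of 11 genes of senescence heterochromatin and 0 of 6 genes of the cGAS and STING pathway were called. At an unadjusted p under 0.05 without the block these lists held 2 and 0 genes. The 2 genes were lower in CD34- CAFs, beside 7.1% of all tested genes.

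**Figure D5:**
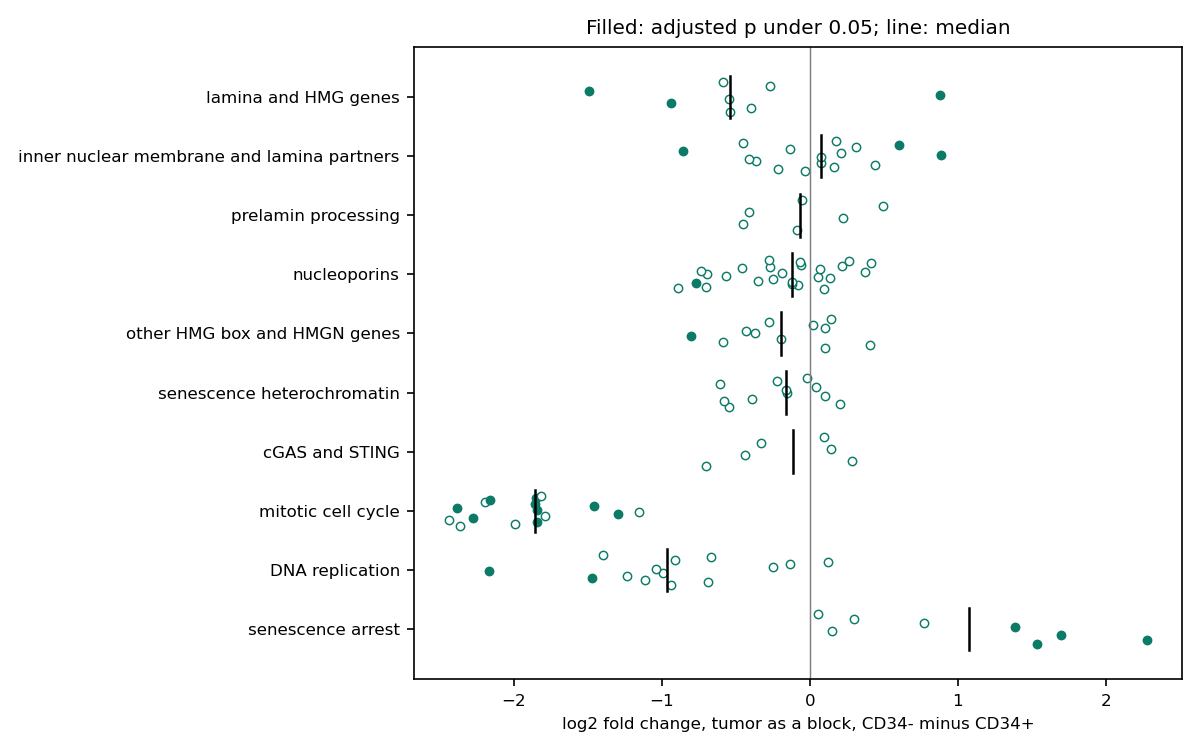
Log2 fold change with the tumor as a block, CD34- minus CD34+ CAFs, for each tested gene of 10 lists, with filled points for an adjusted p under 0.05 and a black line at the list median. The mitotic genes lay at the left (median -1.85, 9 of 16 filled), the senescence genes at the right (1.08, 4 of 8 filled), and the prelamin processing genes held no filled point.

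Among the 9015 genes averaging 3 log2 CPM or more, the patterns closest to each of 3 members over the 6 libraries were ranked by the root mean square difference of centred log2 CPM. For Lmnb1 the 5 closest were Gpc3 (0.182), Cxcl1 (0.196), Selenoh (0.224), Adm (0.237) and Cks1b (0.277). For Lmna they were Ube2o (0.0903), Fbxw9 (0.120), Cebpa (0.123), Plekhg5 (0.128) and Gaa (0.132), and for Hmgb2 they were Kpna2 (0.195), Lsm3 (0.205), Ndc1 (0.209), Rexo2 (0.212) and Fam136a (0.216). No other member was among the 5 closest genes of these 3 members. Hmga1, averaging below 3 log2 CPM, and the untested Hmga2 could not enter that ranking. The likeness is a description over 6 libraries.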

How the data were processed

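Total RNA of sorted cells was made into libraries with the TruSeq RNA v2 protocol and sequenced on an Illumina NextSeq instrument, with poly(A) RNA named as the molecule in the labels. The authors aligned reads to GRCm38 (mm10) and deposited raw read counts per NCBI gene, made with featureCounts per the labels and not normalized. Use of strand and the assignment of reads with several matches are not given in the sources used here. Unnamed rows were kept, as genes with an identifier, and held 0.457% to 0.619% of counts. No column of another series was present.

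Group and tumor came from the sample titles. The test followed the steps that the study's methods name: filterByExpr (minimum count 10), TMM factors, voom and limma, here without a tumor term. Adjustment was Benjamini-Hochberg over 14855 genes, at a threshold of 0.05, two-sided. Those methods name no tumor term without saying whether one was used. The paper reports more genes higher in CD34- CAFs than the 18 called here in both directions without the block. The unblocked fit is therefore not the study's own list, and the reason was not tested. Positive log2 fold changes mean higher in CD34- CAFs. CPM of single genes uses library totals scaled by TMM factors, whereas RPKM and summed list CPM use library totals alone. Because both fractions came from the same tumor, a second fit took the tumor as a block. Deviations from group means correlated within tumors at 0.373, 0.350 and 0.219. Whether tumors came from separate mice is not labelled, so p-values measure the spread between these samples. The tests ran in limma 3.58.1 with edgeR 4.0.16 and, as an alternative, DESeq2 1.42.0, under R 4.3.3, and were tested on simulated data.

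The 9 genes and the lists, written from general knowledge, were chosen with earlier results of these data known. Named genes are the 9, up to 6 per list by smallest blocked p among those called with the block, the 5 closest patterns of Lmna, Lmnb1 and Hmgb2 (Hmga2 was not tested), near-identical copies, and genes of the cell type lists. Zmpste24, Trp53, Rb1, Glb1, Lin28a and Lin28b were named after their values were seen. A gene that enters the list counts is not reported here on its own. Alternatives covered scaling, filter, test, weights, threshold, block, each library and each tumor. The random tumor effect and the added copies were chosen after seeing the data.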

Additional observations from a re-analysis of the deposited data

How the results depend on the processing

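The number of members called was 0 of 8 without the block, 3 with it, 2 with DESeq2, 2 with edgeR and the block, 3 with DESeq2 and the block, and 2 with the tumor as a random effect. Left out in turn, single libraries gave 0 members without the block, and single tumors gave 2 to 5 with it. The number of all genes called was 18, against 1273 with the block, 32 with library totals, 9 with edgeR, 674 with DESeq2, 161 with sample quality weights, 575 with edgeR and the block, 1730 with DESeq2 and the block, 703 with a random tumor effect and 218 at a threshold of 0.1. It was 0 to 34 without single libraries and 1134, 851 and 2019 in the block without tumor 1, 2 or 3. Lmnb2 changed sign with limma-trend (0.0397), edgeR and the block (0.0267), DESeq2 and the block (0.0166), without the CD34+ library of tumor 2 (0.14) and in the block without tumor 2 (0.25), and no other member did in any setting. The cause was not tested.

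Over settings with all libraries, Lmnb1 ranged from -1.66 to -1.20, Lmna from 0.85 to 0.94 and Hmgb2 from -1.10 to -0.73. Lmnb1 and Lmna passed in the block without each tumor in turn, Hmgb2 only without tumor 3. Of the member values under alternatives, 146 kept direction and side of the threshold, 21 became significant and 5 changed sign. Of those for list genes, 282 kept both and 117 became significant. Depth limits Hmga2, with 0 to 25 counts in a library.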
